A study of Mus musculus with 188 samples.

Results

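The insulin-like growth factor (IGF) axis of the basal epidermis was described here through 7 genes: the ligand Igf2, the receptors Igf1r and Igf2r, the binding proteins Igfbp2, Igfbp3 and Igfbp4, and the noncoding RNA H19, which lies beside Igf2. They are 7 of the 49585 genes counted, taken by symbol, and were chosen by the variability of Igfbp3 and H19 between these cells, measured as the squared coefficient of variation against spike-in RNAs, so that variability is given below as a description only. Each sample is a single cell of a Lrig1-CreERT2/RosaYFP mouse at postnatal day 20, and 2 plates of 94 cells make up a single group. They were sorted from tail epidermis by flow cytometry as negative for CD34, a hair follicle bulge marker, positive for alpha 6 integrin, which basal keratinocytes carry, and negative for YFP, a fluorescent reporter. CreERT2 is a recombinase that acts once tamoxifen is given, here driven by Lrig1, a gene of the upper hair follicle, and it switches on YFP in the cells where it acts and in their progeny. Every cell analysed came from this strain, and how the reporter was induced is not given in the labels used here. Since the labels tie no cell to a mouse, the cells stand for 1 sample. All spreads are over cells, and no test between cells was made.

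IGF1 and IGF2 are secreted ligands that signal through the receptor tyrosine kinase IGF1R, which promotes growth and survival of keratinocytes. IGF2R, the mannose 6-phosphate receptor, takes IGF2 up for breakdown in lysosomes. IGF binding proteins (IGFBPs) hold the ligands outside the cell and limit or prolong their action, and proteases such as HTRA1 cut them. In human epidermis IGFBP3 has been placed mostly in the basal layer. Igf2 and H19 are imprinted neighbours that share enhancers, with Igf2 read from the paternal and H19 from the maternal chromosome, while mouse Igf2r is read mainly from the maternal one. H19 is a spliced, polyadenylated RNA with no known protein, and it is the host transcript of the microRNA miR-675.

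The microRNA pair that H19 carries is shown because H19 counts stand for its host RNA here. Both arms are RefSeq sequences on GRCm38.p6, written 5′ to 3′ with the seed, bases 2 to 8, in capitals. The 5p arm is at chr7:142577112-142577133 and the 3p arm at chr7:142577078-142577099, both on the minus strand and inside the first exon block of H19, and their seeds differ.
miR-675-5p: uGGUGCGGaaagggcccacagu
miR-675-3p: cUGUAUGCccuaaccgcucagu
The gene row of the hairpin, Mir675, which shares 84 bases with the H19 exon, had 0 reads in all cells, against 25878 reads counted for H19. The libraries were made from polyadenylated RNA, so these counts do not measure the mature microRNA. How reads over both genes were assigned is not given here, so nothing is read from the 0 of Mir675.

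The promoters of the 3 binding proteins are shown beside each other because these genes are of 1 family and ranged from presence in most cells to presence in few. Each is the 250 bases before the RefSeq start site on GRCm38.p6, on the strand of the gene, with a TATA box in capitals. Igfbp3 is at chr11:7213924-7214173 on the minus strand, Igfbp4 at chr11:99040994-99041243 on the plus strand, and Igfbp2, at the first of its 2 start sites, at chr1:72824230-72824479 on the plus strand.
Igfbp3: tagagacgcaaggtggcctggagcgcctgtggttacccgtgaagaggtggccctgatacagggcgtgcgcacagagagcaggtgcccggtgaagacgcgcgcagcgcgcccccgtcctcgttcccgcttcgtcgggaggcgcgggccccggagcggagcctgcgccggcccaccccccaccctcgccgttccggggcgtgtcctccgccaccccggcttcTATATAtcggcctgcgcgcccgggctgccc
Igfbp4: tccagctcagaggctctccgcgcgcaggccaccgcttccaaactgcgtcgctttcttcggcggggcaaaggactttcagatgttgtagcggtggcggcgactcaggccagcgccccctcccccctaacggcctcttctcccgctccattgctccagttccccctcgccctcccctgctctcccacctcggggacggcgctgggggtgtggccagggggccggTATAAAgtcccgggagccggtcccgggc
Igfbp2: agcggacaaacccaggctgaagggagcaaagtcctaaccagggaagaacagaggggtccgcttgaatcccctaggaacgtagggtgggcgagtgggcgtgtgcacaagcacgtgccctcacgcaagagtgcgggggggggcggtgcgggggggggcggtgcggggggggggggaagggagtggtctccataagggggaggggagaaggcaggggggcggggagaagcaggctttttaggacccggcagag
The letters TATAAA or TATATA, or else TTTATA, which cover both strands and can overlap, were searched. The match began 30 bases before the start of Igfbp3 and 28 bases before that of Igfbp4, and no match stood in either Igfbp2 window. Of 32851 mouse promoter windows of this length, 15.6% held a match, and 4.47% held one in the last 50 bases. RefSeq windows were at hand for 6 of the members, 10 windows in all, and only the Igfbp3 and Igfbp4 windows held a match. GC boxes, GGGCGG or CCGCCC, stood 3 times in the Igfbp2 window shown, in neither window of the other pair, and in 32.7% of all windows. A match is a description of the letters and was not tested for a link with expression.

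Depth over genes ran from 79868 to 1093805 reads per cell (median 369991), and 5821 to 8720 genes were detected per cell. All cells passed the filters on depth, genes and mitochondrial reads. The basal keratins Krt5 and Krt14 were at 10 CPM (counts scaled to 1000000 per cell) or more in 100% of the cells, with means of 20310 ± 7609 and 32410 ± 14096 CPM (SD over cells). Markers of other skin cells were absent in part. The fibroblast genes Lum and Pdgfra, the endothelial gene Cdh5, the T cell gene Cd3e and the Langerhans cell gene Cd207 had 0 reads, as did Cd34, and Col1a1 averaged 0.226 CPM. Wells carried reads from each other: for every 10000 reads of a gene in its own well, an estimated 31.2 were found in a well sharing its lettered row (either plate), 15.0 in one sharing its column on the plate, and 1.84 in any other. A cell was therefore counted as holding a gene only if its reads exceeded 3 times the reads expected from other wells, which is called above background here. Depth touches this rule, since a shallow well receives as many stray reads as a deep one, and the expected stray share of a cell's reads ran from 3.85% to 63.3% with a median of 11.9%. The stray rates rest on 50 genes, and 6 genes chosen more strictly gave 28.6, 9.39 and 0.352, with which Igfbp2 was above background in 80.9% of cells, H19 in 53.2% and Igfbp3 in 30.9%. Other markers were found. Dcn, on the fibroblast list and also on the list of imprinted genes, averaged 25.6 ± 67.97 CPM and was above background in 47 cells, 25.0%. The melanocyte genes Dct and Pmel averaged 5.33 and 5.20 CPM and were each above background in 29 cells, 15.4%. Nfatc1, on the bulge list, averaged 35.1 ± 84.2 CPM and was above background in 65 cells, 34.6%. On the upper hair follicle list, Krt17 averaged 150 ± 559 CPM and was above background in 73 cells, Sox9 in 45, Krt79 in 31 and Lrig1 in 25. Over the marker lists of 8 other skin cell types, Spearman's rho of the summed CPM with Igfbp3 ran from -0.10 to 0.23. It was highest for the bulge and upper hair follicle lists, at 0.23 and 0.19. Each of these sums was mostly a single gene, Nfatc1 for the bulge and Krt17 for the upper hair follicle. With Igfbp3, Nfatc1 alone had a rho of 0.228 and Krt17 0.179, while Lrig1 had 0.0349. No rho was computed for the other genes of these lists, and Lgr5 and Lhx2 averaged only 0.257 and 0.390 CPM. With H19 the rho of the list sums ran from -0.12 to 0.08. The part of other skin cell types or their reads in the results was not tested.

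All 7 genes were present in some of the cells, and no 2 of them had the same pattern. Igfbp2 was above background in 70.2% of the cells (exact 95% interval 63.1% to 76.6%), followed by Igf2r in 89 cells, H19 in 87, Igf1r in 84, Igf2 in 68, Igfbp3 in 50 and Igfbp4 in 39. Counted over the 7 genes, a cell held 2.92 ± 1.47 of them (SD over cells) with a median of 3, 8 cells held none and 1 held all. Cells with more of them were deeper: the median depth was 244597 reads where none was above background and 543874 where 5 were. Per exon length, in TPM (reads per exon base, scaled to the same total), the mean levels were 581 ± 438 for Igfbp2, 329 ± 518 for H19, 104.95 ± 318 for Igfbp3, 18.6 ± 31.04 for Igf2, 11.0 ± 27.9 for Igfbp4, 6.90 ± 11.0 for Igf2r and 6.72 ± 11.1 for Igf1r (SD over cells). Each step in this order was smaller than the SD over cells of either neighbour, except that from Igfbp3 to Igf2, which was smaller than the SD of Igfbp3 and larger than that of Igf2. In the median level Igfbp4, at 1.07 TPM, came last.

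**Figure D1:**
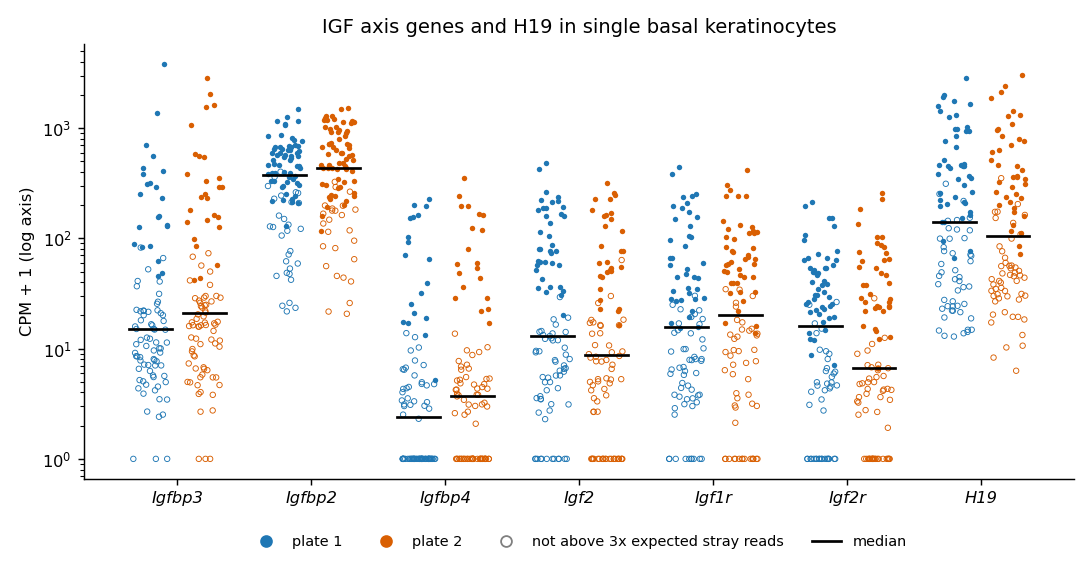
CPM + 1 on a log axis for the 7 genes in each cell, plate 1 left of plate 2, with a black line at the median. Filled points are above background and open points are not. Igfbp2 lies high in most cells, while Igfbp3 is mostly low with a few points far above.

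Igf2, the ligand of the set, ran from 0 CPM in the lowest cell to 486 in the highest, with a median of 10.3 CPM. Its mean was 46.3 ± 78.8 CPM (SD over cells). The median reached 12.1 CPM on plate 1 and 7.74 CPM on plate 2. Cells above background numbered 68, 36.2% (29.3% to 43.5%), with a median of 76.3 CPM among them. Igf2 (ENSMUSG00000048583.16) lies on chromosome 7 from 142650766 to 142666816 on the minus strand, in GENCODE M21 on GRCm38. Its exons share 98 bases with the antisense gene Igf2os, which averaged 0.435 CPM, and strand is not stated in the counting, so these reads cannot be told apart. In the same annotation 3596 exon bases are shared with Gm49394, a protein-coding gene on the same strand, for which the counts used here have no row. The other ligands of the pathway were nearly absent: Igf1 had 3 reads in all and Ins1 and Ins2 had 0, so that for each insulin gene a share of cells with a read of 1.60% or less remains possible.

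The receptors were low, and over both plates together each was held by fewer cells than not, by a margin within the intervals below. Igf1r, with a mean of 47.9 ± 77.3 CPM and a median of 15.9 CPM, ran from 0 to 445 CPM and was above background in 84 cells, 44.7% (37.4% to 52.1%). Igf2r, with a mean of 27.6 ± 43.4 CPM and a median of 9.40 CPM, ran from 0 to 257 CPM and was above background in 89 cells, 47.3% (40.0% to 54.7%). By plate the share for Igf2r was 53.2% on plate 1, more cells than not, and 41.5% on plate 2. Both receptors were above background in 43 cells, 1 of them in 87 and neither in 58. The insulin receptor Insr averaged 23.4 ± 43.9 CPM, and Insrr had 0 reads. Igf1r (ENSMUSG00000005533.10) lies on chromosome 7 from 67952827 to 68233668 on the plus strand, and Igf2r (ENSMUSG00000023830) on chromosome 17 from 12682406 to 12769664 on the minus strand. Airn, the antisense RNA that overlaps Igf2r with 0 shared exon bases, averaged 6.38 CPM.

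Igfbp2 was the broadest of the set. The lowest cell had 19.7 CPM, the median cell 393 CPM and the highest 1515 CPM, with a mean of 465 ± 352 CPM (SD over cells). The plates were alike, with medians of 374 CPM on plate 1 and 430 CPM on plate 2. Reads expected from other wells had a median of 56.1 CPM, so the lowest cells lie within the background. Its 10 highest cells held 15.0% of its summed CPM. Igfbp2 (ENSMUSG00000039323.18) lies on chromosome 1 from 72824503 to 72852474 on the plus strand.

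Igfbp3 showed the opposite shape, low or absent in most cells and very high in a few. The median was 16.4 CPM, against a median of 14.7 CPM expected from other wells, and the mean was 142.2 ± 434 CPM (SD over cells). Cells above background numbered 50, 26.6% (20.4% to 33.5%), 23 on plate 1 and 27 on plate 2, with a median of 242 CPM among them. A read of Igfbp3 was found in 96.8% of the cells, a share that stray reads can raise. The highest cell, well D11 of plate 1, had 3837 CPM from 1159 reads where 8.15 were expected from other wells. The next were D3 of plate 2 with 2866 CPM, G6 with 2053, A9 with 1633 and A8 with 1562 CPM on the same plate, and H7 of plate 1 with 1372 CPM. These cells stand in 4 different lettered rows. The 10 highest cells held 60.7% of the summed CPM of Igfbp3, and 12 cells reached 500 CPM. Igfbp3 (ENSMUSG00000020427.11) lies on chromosome 11 from 7206086 to 7213923 on the minus strand.

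Igfbp4 followed a like pattern at a lower level. It ran from 0 to 349.5 CPM with a median of 2.10 CPM and a mean of 20.9 ± 52.8 CPM, and 39 cells, 20.7% (15.2% to 27.2%), were above background. Its 10 highest cells held 53.4% of the summed CPM. Unlike that of Igfbp3, its spread was near that of spike-in RNAs, at 0.910 times the trend described below on plate 1 and 1.21 times on plate 2. The highest 3 cells were F1 and D1 of plate 2 and A4 of plate 1, with 349.5, 242 and 228 CPM, and none of them was among the 6 highest for Igfbp3. Igfbp4 (ENSMUSG00000017493.12) lies on chromosome 11 from 99041244 to 99054392 on the plus strand. At least 1 of the 3 binding proteins was above background in most cells: 93 cells held 1 of them, 49 held 2, 10 held all 3 and 36 held none.

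H19 was present in every cell by reads and well above background in fewer. The lowest cell had 5.30 CPM, the median cell 120.995 CPM and the highest 3008 CPM, with a mean of 345 ± 537 CPM (SD over cells). The mean was 365 ± 536 CPM on plate 1 and 325 ± 539 CPM on plate 2. Reads expected from other wells had a median of 40.3 CPM, and 87 cells, 46.3% (38.99% to 53.7%), were above background with a median of 433 CPM among them. The highest were E5 of plate 2 with 3008 CPM, F5 of plate 1 with 2835, B2 and B9 of plate 2 with 2402 and 2121, and B12 of plate 1 with 2003 CPM. The 10 highest cells held 32.6% of the summed CPM. H19 (ENSMUSG00000000031) lies on chromosome 7 from 142575529 to 142578143 on the minus strand.

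**Figure D2:**
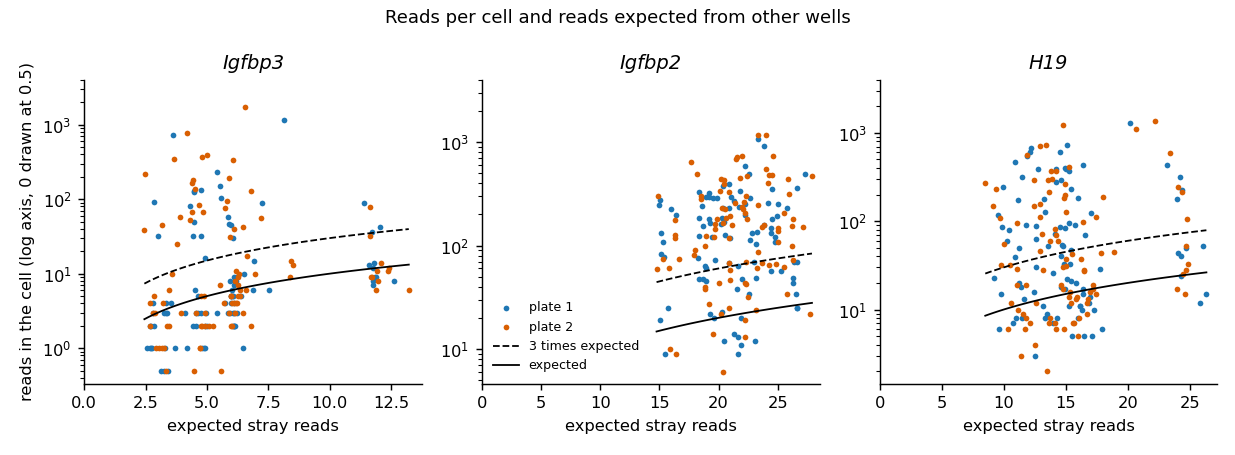
Reads of Igfbp3, Igfbp2 and H19 in each cell on a log axis against the reads expected there from other wells, with a solid line where they are equal and a dashed line at 3 times the expected reads. Igfbp3 lies around the solid line in most cells and far above the dashed line in the cells that hold it, while most Igfbp2 points lie above the dashed line.

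Spread between cells was set against spike-in RNAs, which are added in the same amount to every well, through a trend of their squared coefficient of variation on their mean. The trend rests on the 30 spike-ins of plate 1 and the 28 of plate 2 with a mean of 5 or more on the CPM scale. A gene with a mean of 50 CPM or more was called variable when this measure reached 2 times the spike-in trend on each plate. Spike-ins scatter past this limit too. On plate 1 a spike-in with a mean of 114.2 had a squared coefficient of variation of 2.59, and on plate 2 one with a mean of 111.9 had 3.19. Both lie above 2 times the trend, so values just past the limit are within the spike-in scatter. The rule called 100 of 3685 genes, 2.71%, and of the 3 members tested it called Igfbp3 and H19. As this is the measure that chose the members, nothing is read from that count. Igfbp3 stood at 11.7 times the trend on plate 1 and 9.79 times on plate 2, the 15th largest by the smaller value. H19 stood at 5.96 and 7.50 times, the 21st largest. Igfbp2 stood at 1.68 times the trend on plate 1 and 2.50 times on plate 2 and was not called. Igf2, Igf1r, Igf2r and Igfbp4 had means under 50 CPM and were not tested, with smaller values of 0.981, 0.932, 0.434 and 0.910 times the trend. Just inside the threshold were Trim29 at 2.02 and Top2a at 2.03 times the trend, and just outside it Gja1 at 1.99 and Mcm6 at 1.98.

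**Figure D3:**
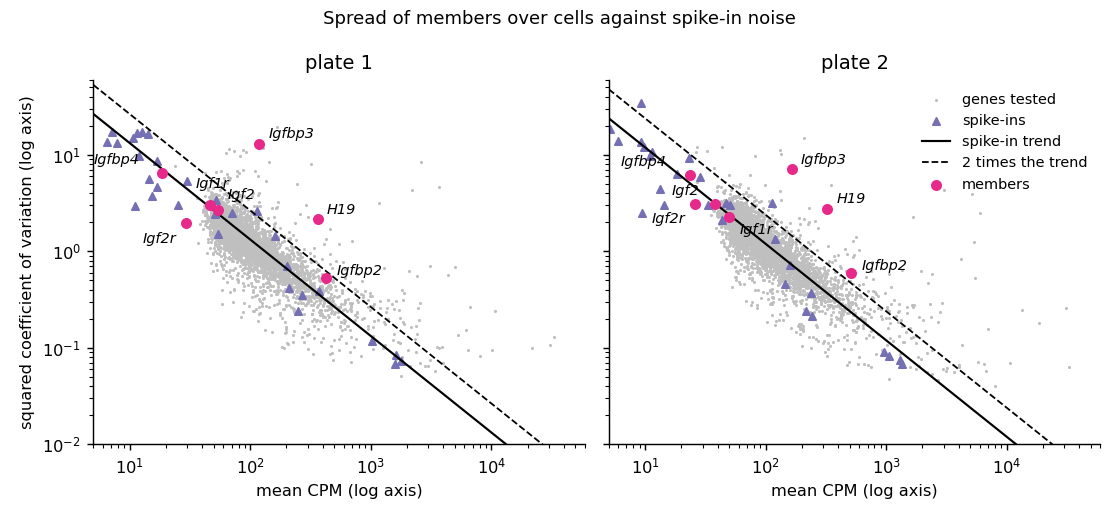
Squared coefficient of variation against mean CPM, both on log axes, for the genes tested (grey), the spike-ins (triangles) and the 7 members (pink), 1 panel per plate. The solid line is the spike-in trend and the dashed line 2 times the trend. Igfbp3 and H19 lie above the dashed line on both plates, Igfbp2 on plate 2 only, and the members with means under 50 CPM near or below the solid line.

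Correlations between the members were weak. Over the 21 pairs, Spearman's rho of log2(CPM + 1) across all cells ran from -0.12 to 0.24 with a median of 0.02. No pair passed 0.3 on both plates, 15 lay within 0.1 of 0, and 11 had opposite signs on the plates. The cells share a sequencing run and differ in depth, and in sparse counts such weak values are not read as relations. The highest was that of Igfbp2 and H19, with 0.24 over all cells, 0.23 on plate 1 and 0.27 on plate 2, and 0.28 once the expected stray reads were subtracted. H19 was above background in 54.5% of the cells that held Igfbp2, 72 cells (45.7% to 63.2%), against 26.8% of the 56 others, 15 cells (15.8% to 40.3%). The cells that held Igfbp2 were also deeper, with a median of 402896 reads against 300456, and the part of depth in this difference was not tested. Igfbp3 was above background with Igfbp2 in 36 cells and with Igfbp4 in 13, and its rho with H19 was -0.05.

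Igf2 and H19, the imprinted neighbours, were found together in some cells and apart in others. Both were above background in 41 cells, Igf2 alone in 27, H19 alone in 46 and neither in 74. H19 was above background in 60.3% of the cells that held Igf2 (47.7% to 71.97%), against 38.3% of the other cells (29.6% to 47.6%). Their rho was 0.16 over all cells, 0.11 on plate 1 and 0.18 on plate 2, and it was 0.02 among the cells without Krt10 above background. The cells that held Igf2 had a median depth of 422508 reads, against 329966 in the others. The highest Igf2 cell, E11 of plate 1 with 486 CPM, had 61.1 CPM of H19, while B2 of plate 2, the fifth highest, had 257 CPM of Igf2 and 2402 CPM of H19. Reads do not tell the parental copies apart here.

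H19 was lower in the cells that held Krt10. Krt10, the keratin of the first suprabasal layer, was above background in 52 cells, and H19 ran from 5.30 to 1434 CPM in them with a median of 36.2 CPM. In the other cells it ran from 11.9 to 3008 CPM with a median of 193 CPM. The groups overlap, and the median of the Krt10 cells is at the level expected from stray reads. The mean was 101.6 ± 209.7 CPM in the Krt10 cells and 438 ± 592 CPM in the others (SD over cells), and 13 cells, 25.0% (14.03% to 38.9%), against 74, 54.4% (45.7% to 62.97%), were above background. The order was the same on each plate, with medians of 37.4 CPM in Krt10 cells and 217 CPM in the others on plate 1, and of 33.8 CPM in Krt10 cells and 173.6 CPM in the others on plate 2. The median depth was 405831 reads in the Krt10 cells and 346008 in the others, and the part of depth was not tested.

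A graded measure gave the same order. The early differentiation score is the mean z score of 12 genes, among them Krt1, Krt10 and Krtdap. By this score the cells were split into 63 with the lowest values, 62 between and 63 with the highest. From the lowest to the highest score the median of H19 was 303, 151.8 and 43.9 CPM on plate 1, and 324, 120.2 and 47.96 CPM on plate 2. In the same order 43, 28 and 16 of these cells were above background. Their median depths, 468439, 328449 and 313295 reads, had the same order, and the part of depth was not tested. The rho of H19 with depth was -0.08 (-0.15 on plate 1 and -0.02 on plate 2), and 0.08 with stray reads subtracted. Spearman's rho of H19 with the score was -0.40 (all cells; Pearson's r -0.42), with -0.41 on plate 1 and -0.39 on plate 2. It was -0.40 with stray reads subtracted. Leaving out the 2 cells most distant from the median score gave -0.39 (Pearson's r -0.40). Among the cells without Krt10 above background rho was -0.22, and it was -0.16 when reads were scaled to the spike-ins in place of the total. Of 9333 genes outside the score, 0.589% passed 0.3 upward on both plates and 0.664% passed -0.3 downward, and 23 had a lower value than H19 by the plate nearer to 0.

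**Figure D4:**
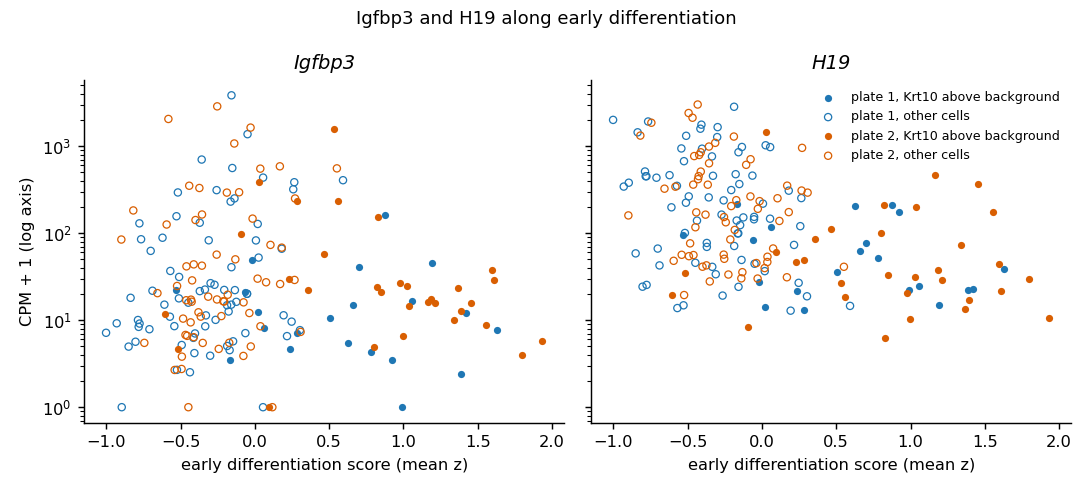
Igfbp3 (left) and H19 (right) in each cell, as CPM + 1 on a log axis, against the early differentiation score. Filled points are cells with Krt10 above background and open points the other cells, coloured by plate. H19 is high mostly at low scores, and the Igfbp3 cells with the most reads are spread over the score.

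H19 was also higher where basal and cell cycle genes were higher. Its rho was 0.32 with the basal keratinocyte score, 0.33 with the S phase score and 0.31 with the G2/M score, and the plates gave 0.37 and 0.27, 0.29 and 0.37, and 0.28 and 0.34 for the 3 scores. Without the Krt10 cells the basal value was 0.08. In the 39 cells with at least 25% of the G2/M list at 10 CPM, H19 had a median of 232 CPM, against 83.6 CPM in the others, and 22 cells, 56.4% (39.6% to 72.2%), against 65, 43.6% (35.5% to 51.98%), were above background, intervals that overlap. Krt10 was above background in 15.4% of the G2/M cells and 30.9% of the others. The G2/M cells were shallower, with a median of 233264 reads against 397884. Mki67, a proliferation marker, had a median of 35.4 CPM in them and 4.71 CPM in the others. It is on the G2/M list that defined these cells, so nothing is read from this difference. The wells' shared reads enter the scores too, and their part in them was not tested.

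Igfbp3 was above background in 10 of the 52 Krt10 cells, 19.2% (9.63% to 32.5%), and in 40 of the others, 29.4% (21.9% to 37.8%), and these intervals overlap. Its median was 14.8 CPM in the Krt10 cells and 18.1 CPM in the others, both near the level of stray reads. Its rho was 0.06 with the early differentiation score, 0.14 with the basal score, -0.0028 with the S phase score and 0.01 with the G2/M score. Among the cells without Krt10 above background its rho was 0.23 with early differentiation, where that of H19 was -0.22, and -0.0032 with the basal score. Under spike-in scaling its rho was 0.19 with early differentiation and 0.27 with the basal score. Igfbp3 had a rho of -0.25 with the depth of the cell (-0.29 on plate 1 and -0.21 on plate 2). With stray reads subtracted that value was -0.02. The values with the scores were recomputed at a fixed depth of 150000 reads in 180 cells, as 1 of the alternatives named below. Beyond this the part of depth in them was not tested. Of the 6 highest Igfbp3 cells, only A8 of plate 2 had Krt10 above background, at 6873 CPM, and their early differentiation scores spanned percentiles 12.2 to 81.4 of the cells.

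Igf1r was lower in the Krt10 cells too, at a lower level than H19 and with more overlap. It averaged 22.7 ± 33.6 CPM in the Krt10 cells and 57.5 ± 86.6 CPM in the others (SD over cells), and was above background in 30.8% (18.7% to 45.1%) against 50.0% (41.3% to 58.7%). These intervals overlap, unlike those of H19. The medians of Igf1r were 7.34 CPM in the Krt10 cells and 23.5 CPM in the others, where stray reads were expected at a median of 5.71 CPM over all cells. Its rho with the basal score was 0.24, and with the early differentiation score -0.20, which turned to 0.05 under spike-in scaling. Igfbp2 had medians of 404 CPM in the Krt10 cells and 374 CPM in the others. Its rho with the amount of RNA per cell, measured as gene reads over spike-in reads, was 0.25 (0.23 on both plates). Igf2, Igf2r and Igfbp4 had rho values between -0.10 and 0.14 with these scores.

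**Figure D5:**
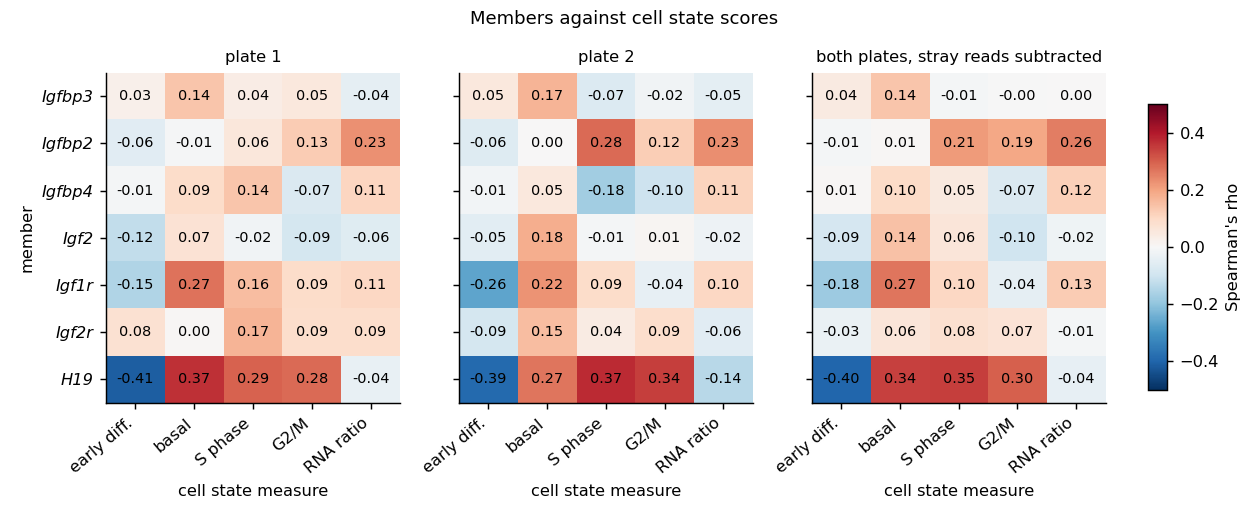
Spearman's rho of each member with 5 measures of cell state, as numbers and as colour from blue (negative) to red (positive), on plate 1, on plate 2, and over both plates with stray reads subtracted. H19 is blue for early differentiation and red for basal, S phase and G2/M in all 3 panels, while Igfbp3 is pale for all 5 measures.

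Genes whose level followed a member were counted among 9344 genes that reached 10 CPM in 10% of cells or more. A gene passed with a rho of 0.3 or higher on each plate, or of -0.3 or lower on each. For Igfbp3 1 gene passed upward, 0.0107%, and 0 downward. It was Ehd1, which encodes an endosome recycling protein, whose rho was 0.44 on plate 1 and 0.43 on plate 2. Ehd1 had a median of 31.4 CPM in the 50 cells that held Igfbp3 and 2.57 CPM in the others. The value was 0.32 over both plates with stray reads subtracted, where it was still the only gene counted. Among the next by the plate nearer to 0 were Spopl at 0.30, Tgm3, an epidermal transglutaminase, at 0.29, Hnrnpab at 0.29 and Trp53inp2 at 0.27, and Tent4b, Smg8, Myo5a and Usp37 were at 0.25 each. The lowest were Spata7 at -0.29, Cnbd2, Pex26, Fzd3 and Gm11539.

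For H19 11 genes passed upward, 0.118%, and 15 downward, 0.161%. With stray reads subtracted 7 passed upward and 15 downward, and 13 of the 26 genes were shared. The highest was Sparc, a secreted matrix glycoprotein, whose rho was 0.58 on plate 1 and 0.46 on plate 2. Sparc had a median of 1042 CPM in the 87 cells that held H19 and 325 CPM in the others. Jag2, a Notch ligand of basal keratinocytes, followed at 0.39 by the plate nearer to 0, then Igfbp7 at 0.39, a member of the wider IGFBP family that binds IGFs weakly. Igfbp7 had a median of 164.6 CPM in cells that held H19 and 90.97 CPM in the others. Ftl1, a ferritin chain, Cdca7, Ctnnal1, Tk1, the thymidine kinase of S phase, B9d1, Tmem176b and Apoe came next at 0.33 to 0.32. The lowest were Krtdap at -0.39, Perp at -0.36, Ly6d, Sfn and Calm4 at -0.35, and Krtdap and Calm4 belong to the early differentiation score. Krtdap had a median of 3174 CPM in cells that held H19 and 4844 CPM in the others. Cells that held H19 had a median depth of 429793 reads, against 313295 in the others.

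The other members were followed by at most 1 gene each. Igfbp2 was followed by Calr, a chaperone of the endoplasmic reticulum, at 0.31, with Idh2 and Tmem256 next. For Igf2r it was Ccnt2, a cyclin of transcription elongation, at 0.34, with Cyld and Pdcd7 next. For Igf2 it was Dhx36, a helicase, at 0.31, named after its value was seen. Igf1r and Igfbp4 had none, and their highest were Fgfr2, a growth factor receptor of keratinocytes, at 0.27, Mis18a and Pitpnc1, and Coq8b at 0.24, Dnajc16 and Zfp326.

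The rest of the IGF pathway was read from 44 genes in 7 roles. On this list 26 genes reached 10 CPM in 10% of cells or more, against 9345 of all 49585 genes. None of the 25 others with a value passed a rho of 0.3 with Igfbp3 on both plates, and for H19 Igfbp7 was the only one of 26. The median rho over the list was 0.05 with Igfbp3 and 0.02 with H19, against 0.02 and 0.01 over all genes. Among the binding proteins Igfbp7 averaged 171.4 ± 185.07 CPM and was above background in 61.2% of cells, Igfbp6 averaged 4.78 CPM, Igfbp5 had 1 read in all and Igfbp1 had 0. Htra1, a protease that cuts IGFBPs, averaged 235 ± 208 CPM and was above background in 72.9% of cells. Pappa and Pappa2, which encode other proteases of IGFBPs, had 4 reads and 1 read in all. Tmem219, which encodes a receptor reported for IGFBP3 in human cells, averaged 49.2 ± 91.03 CPM. Downstream, the kinase gene Akt1 averaged 120.6 ± 128.7 CPM, Pdpk1 74.02 ± 76.5 and Pik3r1, a PI3 kinase regulatory subunit, 59.7 ± 88.7 CPM. Igf2bp3, an RNA binding protein with Igf2 mRNA among its targets, averaged 42.5 ± 72.5 CPM.

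Of 35 genes on the imprinted list, 13 reached 10 CPM in 10% of cells or more, against 9345 of all 49585 genes. On the same list 10 had no read, among them Dlk1 and Meg3. Reads do not tell parental copies apart, so whether the listed genes are imprinted in these cells was not measured. The 8 most abundant were Cd81 with a mean of 403 ± 260 CPM, H19, Ube3a with 58.1 ± 54.9, Slc38a4 with 51.4 ± 73.5, Igf2, Tssc4 with 41.8 ± 63.3, Ascl2 with 37.8 ± 56.2 and Impact with 31.9 ± 58.8 CPM (SD over cells). No imprinted gene passed a rho of 0.3 with H19 or Igfbp3 on both plates. The median rho of the other imprinted genes was 0.09 with H19, against 0.01 over all genes.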

How the data were processed

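Single tail epidermis cells were sequenced with Smart-seq2, a method that copies polyadenylated RNA at full length, with Nextera indexes on a HiSeq4000, per the labels' protocols. The authors deposited raw read counts, 1 whole number for each gene and cell. Trimming with cutadapt 1.13, STAR 2.5.2b, HTSeq 0.6.0 and the build GRCm38 appear in the submitters' processing notes, while step order, annotation release and use of strand were not given in the sources used here.

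CPM are a cell's counts on 49585 genes scaled to 1000000, without the 92 spike-in rows. TPM scale counts per base of union exon length in GENCODE M21, and 49326 identifiers had a symbol. The version numbers of Igf2r and H19 in the file differ from those of M21. The filters asked for 50000 counts and 1500 genes or more per cell and for a mitochondrial share of 15% or less. Doublets were not called, since 1 cell was sorted per well. Stray reads between wells were estimated from 50 genes whose highest well had 100 reads or more and whose second well had 5% of it or less. The 95% intervals are exact Clopper-Pearson intervals. Intervals and the limit of 3 cells for a count of 0 cover counting error only, since reads without molecular identifiers are not independent molecules. Scores are mean z scores of log2(CPM + 1) over the list, without the gene compared. Spearman's rho is given with no p-value, because all cells form 1 group. The steps ran in Python 3.11.15 with numpy 2.4.6, pandas 2.3.3 and scipy 1.17.1, and in R 4.3.3 with scran 1.30.0 for pooled size factors, and were tested on simulated data. Named genes are the members, the 10 highest and 5 lowest by rho for Igfbp3 and H19, the 3 highest for Igfbp2, Igfbp4, Igf1r and Igf2r, and the most abundant genes of the pathway and imprinted lists; 2 of these genes are not reported here. The members, lists and rules were chosen with earlier results of these data known. Alternatives tried were other scaling (pooled size factors, spike-ins), subtraction of stray reads, a fixed depth, each plate alone, other limits, and cells left out. Leaving out the Krt10 cells and 2 further background rules were added after the data were seen.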

Additional observations from a re-analysis of the deposited data

How the results depend on the processing

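Of 565 values recomputed under alternatives for 72 results, 493 were labelled close to the reported value, 72 moved and 0 reversed. These labels are loose, and nothing is read from their counts. A mean counted as close within its SD over cells, which exceeds the mean for every member but Igfbp2. A rho counted as close within 0.1, and as reversed only if its reported value was at least 0.3 in size. Igfbp3 and H19 were called variable under every alternative tried, while all genes called numbered 50 at 3 times the trend and 189 with stray reads subtracted, where Igfbp2 was called as well, at 2.28 times. A read was found in 96.8% of cells for Igfbp3 and 100% for H19, and 10 CPM in 64.9% and 97.9%. H19 was above 2 times the expected stray reads in 54.8% of cells and above 5 times in 38.3%. At a rho limit of 0.2, 1.44% of the genes tested followed H19 upward and 0.631% downward, and 0.439% and 0.118% followed Igfbp3. At 0.4 the shares for H19 were 0.0107% and 0%. With stray reads subtracted 0.0750% followed H19 upward and 0.161% downward. Spike-in scaling, which adds the amount of RNA per cell to every gene, gave a rho of -0.16 for H19 with early differentiation, and 0.19, 0.27 and 0.13 for Igfbp3 with early differentiation, the basal score and S phase. Without the Krt10 cells these 3 were 0.23, -0.0032 and -0.12, H19 had -0.22 with early differentiation and 0.080 with the basal score, and the pairs Igf2 with H19 and Igfbp3 with H19 had 0.0174 and -0.16. The cause of these shifts was not tested. 8 cells were too shallow for the fixed depth of 150000 reads, and stray reads limit any statement on levels under about 3 times the expected background. No paired analysis was possible because all cells form 1 group.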
